A study of Mus musculus with 24 samples.

Results

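A set of 10 genes at the centre of heart formation was followed through the differentiation of Atf3 knockout and wild-type mouse embryonic stem cells. They were the transcription factors Nkx2-5, Gata4, Gata6, Tbx5, Tbx20, Mef2c, Hand1, Hand2 and Isl1 and the lysine methyltransferase Smyd1, chosen by name among the 53465 genes in the deposited table. The groups were Atf3 knockout (KO) cells, undifferentiated (day 0) or after 3, 6 or 9 days of differentiation, and wild-type (WT) cells at the same days, with 3 libraries in each of the 8 groups. Both genotypes were kept before differentiation in serum medium with leukaemia inhibitory factor, the GSK3 inhibitor CHIR99021 and the MEK inhibitor PD0325901. Embryonic stem cells are pluripotent cells of the early embryo, and ATF3 is a leucine zipper transcription factor that cells under stress induce. The sources used here name neither the edit in Atf3 and the number of KO clones nor the factors that drove differentiation. They do not say that the 3 libraries of a group are 3 cultures, so the p-values measure a spread that may be technical. The title of the series names mesoderm and endothelium, so the heart genes address a mesoderm derivative other than the endothelium.

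The heart forms from mesoderm that meets BMP, FGF and WNT signals. In the precursor cells a network of factors that switch each other on is set up: the homeobox protein NKX2-5, the zinc finger proteins GATA4 and GATA6, the T-box proteins TBX5 and TBX20, the MADS-box protein MEF2C, the basic helix-loop-helix proteins HAND1 and HAND2, and the LIM-homeobox protein ISL1 of the second heart field. These proteins bind together at genes of the contractile apparatus, and SMYD1 is needed in muscle for the sarcomere, the contractile unit, to form. Few of them are restricted to heart muscle. Gata4, Gata6 and Hand1 are also used by extraembryonic tissue, Hand2 and Isl1 by limb and neural tissue, and Mef2c by endothelium and skeletal muscle.

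Levels are the deposited FPKM values, which are fragment counts corrected for gene length and library size, and differences are log2 fold changes of FPKM + 1, which understate the change of genes near or below 1 FPKM. The test throughout was limma across the 15159 genes that reached 1 FPKM in 3 or more libraries, with Benjamini-Hochberg adjustment and a threshold of 0.05. This filter kept 9 of the 10 genes. Mef2c did not pass, since it stayed below 1 FPKM in all 24 libraries, and Tbx5 passed only through the 3 KO day 9 libraries, so that its presence among the tested genes already required it to be high there. Depth was 7.86e+06 to 2.53e+07 reads per library, recovered from the FPKM values. In WT day 6 replicate 3, 45.6% of the reads lay in 3 rRNA-type genes, against 4.42% to 35.2% in the others. Atf3 itself was lower in KO than in WT libraries at every day without overlap. At day 9 it had 0.355, 0.714 and 0.532 FPKM in KO libraries, against 13.7, 15.0 and 16.2 FPKM in WT libraries (log2 fold change -3.38, adjusted p = 5.86e-05). KO day 6 replicate 3 stood apart, with 4.17 FPKM of Atf3 against 0.343 and 0.578 FPKM in the other KO libraries of that day, and it was the lowest KO library of day 6 for 9 of the 10 genes.

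Promoter sequences were available for 6 of the 10 genes (RefSeq, GRCm38.p6, which is mm10), as windows of 250 bases before to 50 bases after a start site. Shown are Smyd1, Nkx2-5 and Mef2c, whose levels at day 9 were higher in every KO than in every WT library, and Tbx20 and Isl1, whose levels at day 9 overlapped between the genotypes. Each reads 5′ to 3′ along the gene, with motif matches in capitals. The motifs searched on both strands were AGATAA for GATA factors, NAAGTG for NKX2-5, GGTGTG for T-box factors, CATCTG as an E-box, TGACGT as the short form of the ATF/CREB site, TGANTCA for AP-1, which includes ATF3 dimers, and TAAAAAT for MEF2.
Smyd1 (chr6:71262232-71262531, minus strand): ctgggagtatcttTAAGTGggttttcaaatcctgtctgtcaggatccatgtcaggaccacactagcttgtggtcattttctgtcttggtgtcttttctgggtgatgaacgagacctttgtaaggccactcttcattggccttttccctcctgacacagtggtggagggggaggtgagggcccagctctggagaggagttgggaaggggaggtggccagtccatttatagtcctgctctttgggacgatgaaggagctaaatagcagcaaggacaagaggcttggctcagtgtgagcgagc
Nkx2-5 (chr17:26841516-26841815, minus strand): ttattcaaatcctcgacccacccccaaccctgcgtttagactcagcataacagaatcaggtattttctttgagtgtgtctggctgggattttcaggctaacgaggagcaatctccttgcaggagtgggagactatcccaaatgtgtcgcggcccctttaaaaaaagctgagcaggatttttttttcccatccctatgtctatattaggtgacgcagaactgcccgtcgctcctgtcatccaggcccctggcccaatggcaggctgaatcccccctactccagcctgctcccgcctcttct
Mef2c (chr13:83573357-83573656, plus strand): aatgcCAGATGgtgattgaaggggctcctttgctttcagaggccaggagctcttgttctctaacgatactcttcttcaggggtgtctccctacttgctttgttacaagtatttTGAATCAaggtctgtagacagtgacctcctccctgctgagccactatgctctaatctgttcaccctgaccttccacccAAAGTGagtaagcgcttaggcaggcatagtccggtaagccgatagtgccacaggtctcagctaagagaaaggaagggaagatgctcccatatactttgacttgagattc
Tbx20 (chr9:24774254-24774553, minus strand): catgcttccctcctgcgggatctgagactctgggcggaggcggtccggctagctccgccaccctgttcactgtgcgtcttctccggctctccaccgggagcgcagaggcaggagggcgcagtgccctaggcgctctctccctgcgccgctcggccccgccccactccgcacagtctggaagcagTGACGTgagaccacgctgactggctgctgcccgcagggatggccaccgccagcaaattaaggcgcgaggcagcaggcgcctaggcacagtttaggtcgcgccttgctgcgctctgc
Isl1 (chr13:116309639-116309938, minus strand): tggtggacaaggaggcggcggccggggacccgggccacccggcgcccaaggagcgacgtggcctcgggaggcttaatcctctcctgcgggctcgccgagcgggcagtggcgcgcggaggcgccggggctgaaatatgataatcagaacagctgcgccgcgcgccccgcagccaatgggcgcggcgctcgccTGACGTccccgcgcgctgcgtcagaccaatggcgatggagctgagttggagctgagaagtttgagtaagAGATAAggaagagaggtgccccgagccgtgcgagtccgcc
In the Smyd1 window the capitals mark an NKX2-5 type match at positions -237 to -232 from the start site, a motif that 46.3% of all 32851 promoter windows hold. The Nkx2-5 window held none of the motifs. Mef2c has 3 windows, of which the one with an AP-1 match is shown, at -137 to -131 (7.81% of all windows hold one), beside an NKX2-5 type match at -59 to -54 and an E-box at -245 to -240 (17.2%). Its other windows held NKX2-5 type matches, and one of them a T-box match (19.0%). The Hand2 window, not shown, held a GATA match, an NKX2-5 type match and an E-box. The short ATF/CREB site, present in 7.51% of all windows, was found at -66 to -61 in the Tbx20 window and at -59 to -54 in the Isl1 window. Isl1 also held a GATA match at 11 to 16 bases after the start, a motif of 11.2% of windows. No matches overlapped in these windows. They are matches of letters and not measured binding, and the gene models of Smyd1 and Nkx2-5 reach further upstream (to 71322233 and 26845009), where other starts were not examined.

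In undifferentiated cells and at day 3 the network was at low levels in both genotypes, and between days 3 and 6 almost all of it came up. The summed level of the 10 genes was 4.39 to 5.05 FPKM in KO and 4.90 to 5.91 FPKM in WT libraries at day 0. At day 3 it was 5.05 to 6.61 FPKM in KO and 8.77 to 11.9 FPKM in WT libraries, which did not overlap. Gata4 alone averaged 1.59 FPKM in KO and 4.19 FPKM in WT libraries at that day. The median log2 fold change of the 9 tested genes was -0.16, beside -0.02 over all genes, and none of the 9 passed the threshold. By day 6 the summed level was 218 to 395 FPKM in KO and 179 to 318 FPKM in WT libraries, most of it Hand1. From day 3 to day 6, 8 of the 9 tested genes rose in KO cells, where 17.7% of all tested genes rose, and 7 of 9 in WT cells, where 19.5% of all tested genes rose. Tbx5 did not pass in KO cells (log2 fold change 0.13), and neither Tbx5 (0.37, adjusted p = 0.0669) nor Smyd1 (0.61, adjusted p = 0.0731) passed in WT cells. The KO minus WT difference of this step did not pass for any of the 9 genes, with 0.0726% of all genes called in that test, an unadjusted p under 0.05 for Gata4 alone (0.00329), and no call with voom on the recovered reads. Without KO day 6 replicate 3 the difference of Gata4 passed (1.44, adjusted p = 0.00946). Single libraries also decided 3 of the calls within a genotype. The rise of Nkx2-5 in KO cells (1.52, adjusted p = 0.00885) missed the threshold without KO day 6 replicate 1 or 2 (adjusted p up to 0.0681), and its rise in WT cells (1.08, adjusted p = 0.0489) missed it without any 1 of 5 of the 6 WT libraries (up to 0.162), with the replicate block (0.0898), and in 4 other alternatives (no filter, TPM, equal sums and voom, up to 0.101). The rise of Smyd1 in KO cells (0.83, adjusted p = 0.0211) missed it without replicate 1 or 2 of either day (up to 0.0713). Tbx5 passed in WT cells without WT day 6 replicate 2 (0.47, adjusted p = 0.031).

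**Figure D1:**
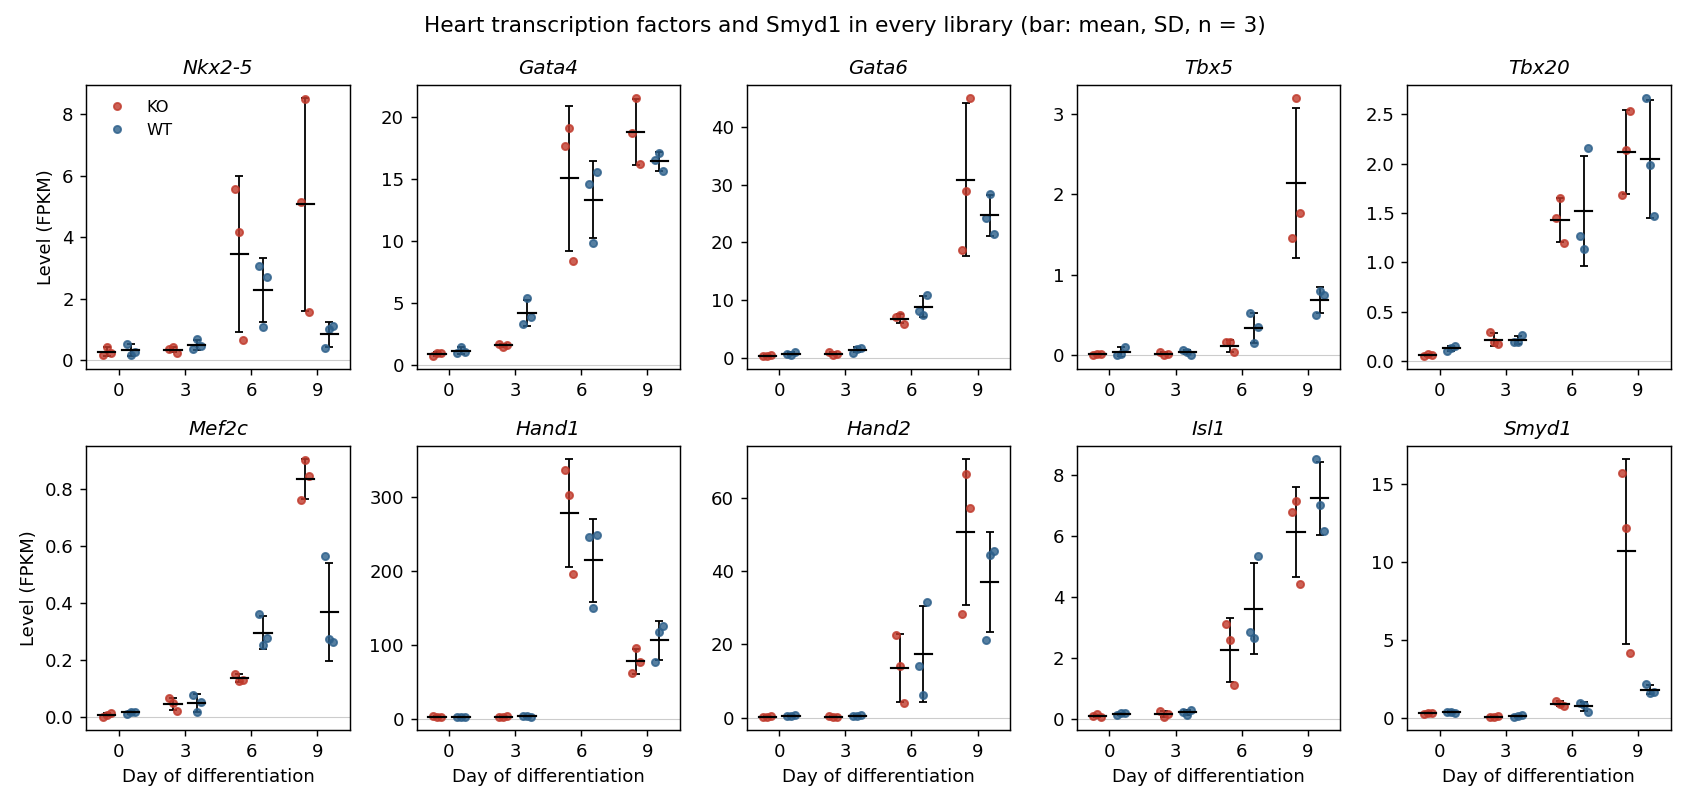
FPKM of each of the 10 genes in each library (vertical axes, linear), by day, with KO libraries left of WT libraries and bars for the mean and SD (n = 3). Hand1 peaks at day 6 in both genotypes, and at day 9 the KO libraries of Smyd1, Nkx2-5, Tbx5 and Mef2c all lie above the WT libraries.

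After day 6 the genes went different ways. In KO cells 5 of the 9 rose from day 6 to day 9 (Gata6, Tbx5, Hand2, Isl1 and Smyd1; 6.06% of all tested genes rose) and Hand1 fell (2.45% of all tested genes fell). In WT cells Gata6 and Isl1 rose (8.15% of all tested genes rose) and Hand1 fell (5.13% of all tested genes fell). Up to day 3 there was a single call, a rise of Gata4 in WT cells from day 0 to day 3 (1.25, adjusted p = 3.32e-04; 11.4% of all tested genes rose), against no call in KO cells, where 11.9% of all genes rose and 16.2% fell. Smyd1 went the other way at that step: its levels at day 3 lay below those at day 0 without overlap in both KO cells (log2 fold change -0.30, adjusted p = 0.434) and WT cells (-0.29, adjusted p = 0.475). With a pseudocount of 0.1, which shrinks differences between such low levels less, the fall passed in both KO cells (-1.27, adjusted p = 0.0151) and WT cells (-1.06, adjusted p = 0.0425). With voom it was -1.99 in KO cells (adjusted p = 0.0432) and -1.48 in WT cells (adjusted p = 0.137), and with the compared groups alone it passed in both (0.00808 in KO and 0.0318 in WT cells). The summed reads were 17 at day 3 and 62 at day 0 in KO cells, and 22 at day 3 and 63 at day 0 in WT cells.

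**Figure D2:**
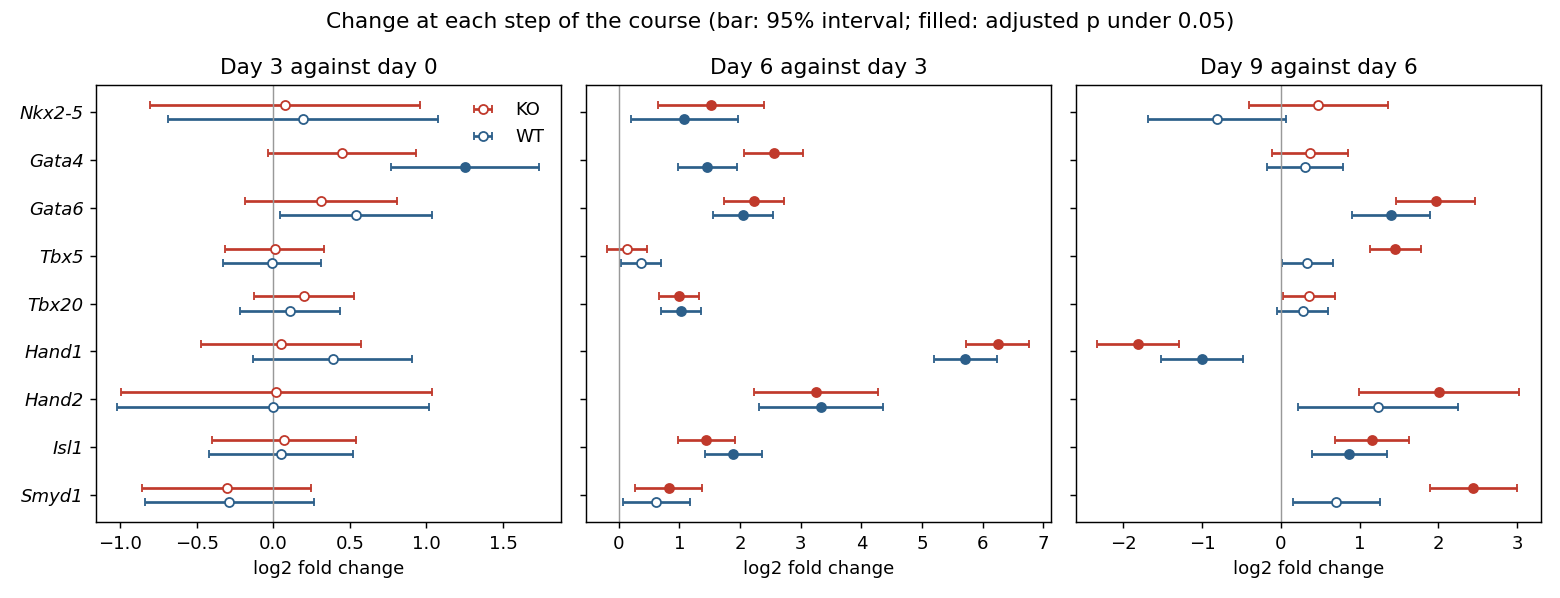
Log2 fold change of FPKM + 1 for each tested gene over each step of the course (day 3 against 0, 6 against 3, 9 against 6), KO above WT, with 95% intervals from limma. Hand1 has the longest step from day 3 to 6 and turns down from day 6 to 9 in both genotypes, and Smyd1 and Tbx5 have a longer step from day 6 to 9 in KO than in WT cells.

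Between the genotypes, 2 of the 9 tested genes were called at day 9, Smyd1 and Tbx5, both higher in KO cells, where 0.963% of all tested genes were called, 0.468% higher and 0.495% lower. By limma none of the 9 was called at day 0 or day 3, where 0.0132% of all tested genes were called at each day, or at day 6, where 0.726% were. At those days the unadjusted p was under 0.05 for Gata4 and Gata6 at day 3 and Isl1 at day 6 among the 9, and voom on recovered reads called none either. Leaving out KO day 6 replicate 3 gave no call at day 6. The count of 2 at day 9 includes Tbx5, which the filter had admitted only for its KO day 9 levels. The bulk libraries do not tell more cells of a type from more RNA per cell.

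Smyd1 (ENSMUSG00000055027, mm10 chromosome 6, 71213940 to 71322233, minus strand) had the smallest adjusted p of the 9 tested genes at day 9. Its levels at day 9 were 15.7, 12.1 and 4.15 FPKM in KO libraries, against 2.19, 1.64 and 1.66 FPKM in WT libraries. All KO libraries lay above all WT libraries, as for 6.41% of all tested genes, and replicate 3 was well under the other KO libraries. The log2 fold change was 1.89 (SE 0.27, adjusted p = 4.36e-04), and the ratio of the means was 5.84. The lowest and highest values without any 1 library of that day were 1.55 and 2.40, and each passed. With only the day 9 groups in the fit the call was lost (adjusted p = 0.362). At day 6 Smyd1 had 1.08, 0.905 and 0.775 FPKM in KO libraries and 0.986, 0.859 and 0.404 FPKM in WT libraries, which overlapped. The step from day 6 to day 9 was 2.44 in KO cells (adjusted p = 2.68e-06) and 0.70 in WT cells (adjusted p = 0.0822). The difference between these steps was 1.74 (SE 0.38, adjusted p = 0.0237; 0.963% of all tested genes were called in this test, 0.6% higher). It was lost when any of 6 of the 12 libraries was left out, with adjusted p up to 0.0736, with replicate number as a block within each day (adjusted p = 0.0598), with a pseudocount of 0.1 (0.135), under TPM (0.138), with voom (0.204) and with only the 4 groups in the fit (0.471). The 6 libraries were KO day 6 replicate 2, KO day 9 replicates 1 and 2, WT day 6 replicate 1 and WT day 9 replicates 2 and 3. The annotation places Krcc1 and Gm1070 within the Smyd1 locus on the other strand, with 0 shared exon bases. Gm1070 averaged 2.37 FPKM in KO and 1.83 FPKM in WT libraries at day 0, and 0.0538 and 0.0683 FPKM at day 3. Its part in the low Smyd1 levels of day 0 was not tested.

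Smyd1 is the muscle member of a family of SET and MYND domain proteins. Of the other members Smyd2, Smyd3, Smyd4 and Smyd5, together with Naca, whose muscle form binds SMYD1, 0 of 5 were called at day 6, where 0.726% of all tested genes were, or at day 9, where 0.963% were, so that the count says nothing particular about the family. Naca, the most abundant of them, averaged 67.0 ± 16.8 FPKM in KO and 76.5 ± 16.3 FPKM in WT cells at day 9 (SD, n = 3 each; adjusted p = 1). The median log2 fold change of the 5 was 0.05, beside 0.01 over all genes.

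Tbx5 (ENSMUSG00000018263, chromosome 5, 119832668 to 119885219, plus strand), a factor of the first heart field and the forelimb, came on late. It was at most 0.102 FPKM in any library up to day 3, with at most 7 recovered reads per group of 3 libraries. At day 6 it had 0.158, 0.162 and 0.0318 FPKM in KO libraries, against 0.526, 0.152 and 0.343 FPKM in WT libraries, which overlapped. At day 9 it had 1.45, 3.20 and 1.77 FPKM in KO libraries, against 0.502, 0.801 and 0.749 FPKM in WT libraries. The genotypes did not overlap at day 9, and the sums behind these values were 647 reads in KO and 209 reads in WT cells. The filter had admitted Tbx5 only for its KO day 9 levels. Within that limit the log2 fold change was 0.86 (SE 0.15, adjusted p = 0.00399) and the ratio of the means 3.13. It also passed with no filter and with the replicate block (adjusted p up to 0.0269). It did not pass with a pseudocount of 0.1 (adjusted p = 0.309), with voom (0.139) or with the day 9 groups alone (0.449). The KO minus WT difference was larger at day 9 than at day 6 by 1.12 (SE 0.22, adjusted p = 0.0126), and this too was lost in those 3 settings.

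Nkx2-5 (ENSMUSG00000015579, chromosome 17, 26838664 to 26845009, minus strand), an early marker of heart precursors, had 5.13, 8.50 and 1.58 FPKM in KO libraries at day 9, against 0.376, 1.02 and 1.10 FPKM in WT libraries. The groups did not overlap, but the KO libraries spread widely and replicate 3 lay close to the WT libraries. The log2 fold change of 1.56 (SE 0.42, 95% interval 0.68 to 2.44) did not pass (adjusted p = 0.109). It passed without KO day 9 replicate 3 (2.08, adjusted p = 0.00867), under TPM (adjusted p = 0.00952) and with equal library sums outside the rRNA-type genes (adjusted p = 0.0224). At day 6 Nkx2-5 already spread widely, with 5.57, 4.16 and 0.651 FPKM in KO libraries and 3.05, 1.09 and 2.71 FPKM in WT libraries. The order of its 4 highest group means was KO day 9, KO day 6, WT day 6 and WT day 9, and each of these groups overlapped with the next.

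Mef2c (ENSMUSG00000005583, chromosome 13, 83504034 to 83667080, plus strand), which works with GATA and T-box factors in the heart, had the lowest maximum of the 10 genes and was left out of the test by the filter. At day 9 it had 0.764, 0.902 and 0.847 FPKM in KO libraries, against 0.567, 0.276 and 0.266 FPKM in WT libraries, with 885 and 460 reads behind the groups. At day 6 the order was the opposite, with 0.153, 0.128 and 0.129 FPKM in KO libraries and 0.363, 0.252 and 0.277 FPKM in WT libraries. Neither day overlapped, and the exact permutation test, two-sided, gave p = 0.1 for both, the smallest that 3 against 3 allows. When limma was run on all 34699 genes with a value above 0, the log2 fold change of Mef2c at day 9 was 0.43 (adjusted p = 8.65e-04), that of day 6 was -0.19 (adjusted p = 0.271), and the difference between these days was 0.62 (adjusted p = 0.00118).

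**Figure D3:**
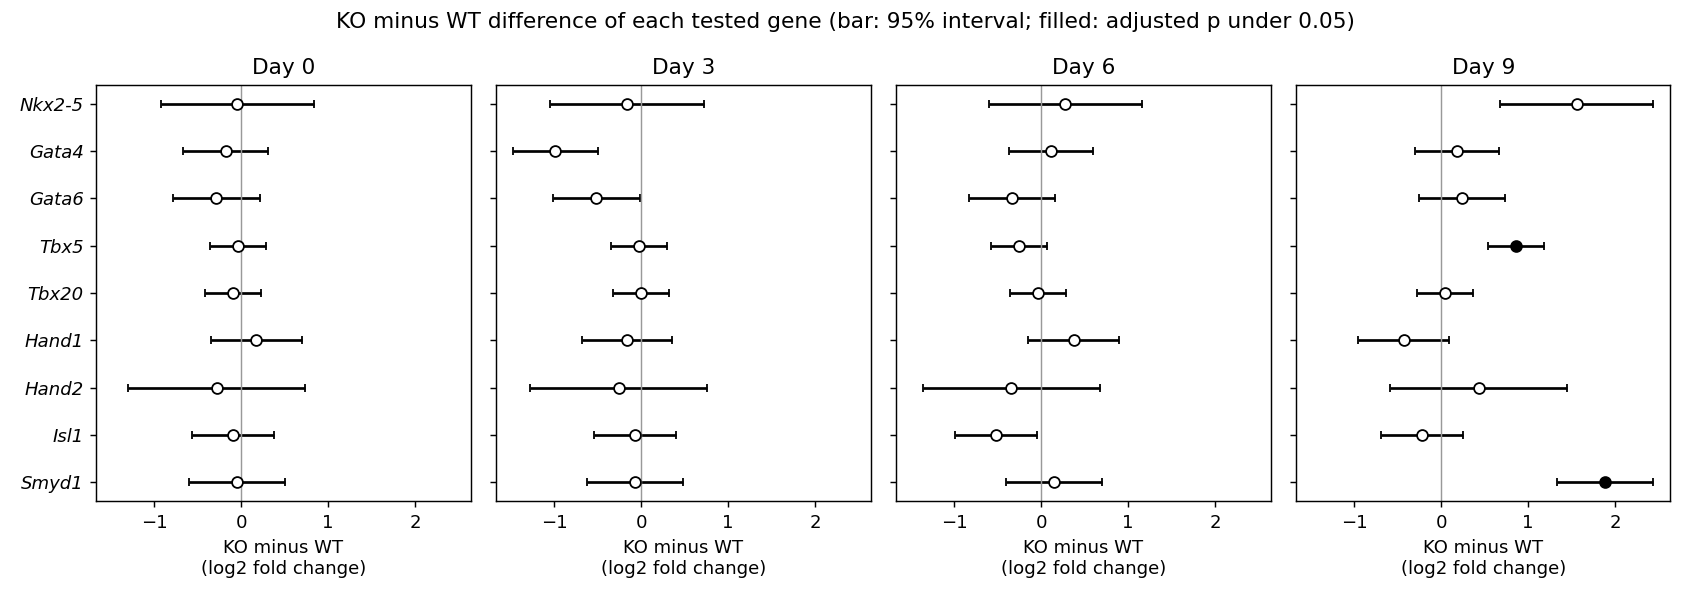
KO minus WT difference in log2(FPKM + 1) for each tested gene at each day, with 95% intervals from limma. At day 9 Smyd1 (1.89), Nkx2-5 (1.56) and Tbx5 (0.86) lie to the right of 0, and the intervals of the other 6 genes include 0.

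The remaining factors did not pass between the genotypes at day 9. Gata4 (ENSMUSG00000021944, chromosome 14, 63198922 to 63271692, minus strand), needed for the heart tube to form, had 18.7, 21.5 and 16.2 FPKM in KO libraries and 16.5, 17.1 and 15.6 FPKM in WT libraries at day 9, with a log2 fold change of 0.18 (95% interval -0.31 to 0.66). Gata4 differed most at day 3, where it had 1.67, 1.45 and 1.65 FPKM in KO libraries, against 3.28, 5.37 and 3.92 FPKM in WT libraries. Every KO library lay below every WT library, as for 2.3% of all tested genes at that day. The log2 fold change of -0.98 (SE 0.23) had an unadjusted p of 3.97e-04 and did not pass adjustment (adjusted p = 1, and 0.182 to 1 over the alternatives). By day 6 the groups overlapped, with 17.6, 19.1 and 8.38 FPKM in KO libraries and 14.6, 9.81 and 15.6 FPKM in WT libraries.

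Gata6 (ENSMUSG00000005836, chromosome 18, 11052064 to 11085635, plus strand) is, like Gata4, a GATA factor shared by heart and primitive endoderm. Its levels at day 3 were 0.937, 0.483 and 0.550 FPKM in KO libraries and 0.866, 1.54 and 1.73 FPKM in WT libraries (log2 fold change -0.51, adjusted p = 1). At day 6 it had 6.97, 7.34 and 5.87 FPKM in KO libraries, all below the 8.03, 7.47 and 10.9 FPKM of WT libraries, as for 3.73% of all tested genes, and the difference did not pass (-0.33, adjusted p = 0.626). By day 9 Gata6 had 18.6, 29.0 and 45.1 FPKM in KO libraries and 24.3, 28.3 and 21.4 FPKM in WT libraries, which overlapped (0.24, 95% interval -0.26 to 0.73). It rose from day 6 to day 9 in both genotypes, by 1.96 in KO cells (adjusted p = 1.04e-05) and 1.40 in WT cells (adjusted p = 5.3e-04). Of 20 markers of extraembryonic endoderm, another tissue with Gata4 and Gata6, 18 were tested. At day 3, 0 were called (median log2 fold change -0.38), where 0.0132% of all tested genes were. At day 9, 0 were called (-0.83), where 0.963% of all tested genes were. The lower calls of day 9 were 1 under TPM or voom, 2 with equal sums and 0 with a pseudocount of 0.1. At day 6 a single one was called, the fibrinogen gene Fgb, which was higher in KO cells (1.56, adjusted p = 0.0409). At that day 0.726% of all tested genes were called. In each of these 4 settings the list had 0 calls at day 6. The summed level of the 20 genes was 21.1 to 28.3 FPKM in KO and 30.0 to 52.0 FPKM in WT libraries at day 3, and 144 to 458 FPKM in KO and 547 to 908 FPKM in WT libraries at day 9. At day 6 it was 1788 and 1548 FPKM in KO replicates 1 and 2 and 220 FPKM in KO replicate 3, against 418 to 757 FPKM in WT libraries. Their part in the levels of Gata4 and Gata6 was not tested.

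Hand1 (ENSMUSG00000037335, chromosome 11, 57828705 to 57832818, minus strand), a factor of the left ventricle, of extraembryonic mesoderm and of trophoblast, was the most abundant of the 10 genes in every library of days 6 and 9. It had 2.12 to 3.26 FPKM in KO and 2.62 to 3.32 FPKM in WT libraries at day 3. At day 6 it had 337, 304 and 196 FPKM in KO libraries and 246, 150 and 249 FPKM in WT libraries, a step of 6.25 in KO cells (adjusted p = 1.08e-12) and 5.71 in WT cells (adjusted p = 6.13e-12). At day 9 Hand1 was down to 62.0, 95.8 and 76.1 FPKM in KO libraries and 76.1, 117 and 125 FPKM in WT libraries. The fall from day 6 was -1.81 in KO cells (adjusted p = 4.84e-05), and in WT cells it was -1.01 (adjusted p = 0.0115) but 0.094 under TPM (adjusted p = 0.826), a scaling under which the median of all genes at this step was 0.78, against 0.02 without it. The WT fall also missed the threshold without WT day 6 replicate 1, WT day 6 replicate 3 or WT day 9 replicate 1 (adjusted p up to 0.074). Hand1 did not pass between genotypes at any day, with -0.43 at day 9 (95% interval -0.95 to 0.09) and -0.80 for the difference between the steps (adjusted p = 0.514). The summed level of 15 trophoblast genes was 252 to 323 FPKM in KO and 337 to 478 FPKM in WT libraries at day 9, most of it Peg10. With Hand1 the list held 16 genes, of which 11 were tested. At day 9, 3 were called, all lower in KO cells, where 0.495% of all tested genes were called lower. The median log2 fold change of the 11 was -0.77, beside 0.01 over all genes. The lower calls were 3 with equal sums and 2 under TPM, voom or a pseudocount of 0.1. Among these markers Prl3d1 was at 0 in all 24 libraries and Tpbpa in 21.

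Hand2 (ENSMUSG00000038193, chromosome 8, 57320983 to 57324633, plus strand), the right-ventricle partner of Hand1 that loss of Smyd1 lowers in the mouse heart, had its highest levels at day 9. Its levels at day 6 were 22.5, 14.0 and 3.95 FPKM in KO libraries and 14.1, 6.19 and 31.6 FPKM in WT libraries. At day 9 they were 28.3, 66.5 and 57.1 FPKM in KO libraries and 21.1, 44.3 and 45.5 FPKM in WT libraries. Both days overlapped between the genotypes, with a log2 fold change of 0.43 at day 9 (95% interval -0.58 to 1.45). The step from day 6 to day 9 passed in KO cells (2.01, adjusted p = 0.0107), though not with the replicate block (adjusted p = 0.0567) or without KO day 9 replicate 2 or 3 (up to 0.053). In WT cells it was 1.24 (adjusted p = 0.094), and 1.79 without WT day 6 replicate 3, where it passed (0.033). The antisense gene AV026068 shares 461 exon bases with Hand2 and had 2.01 to 3.93 FPKM in KO and 1.69 to 2.78 FPKM in WT libraries at day 9. Gata6 shares 93 exon bases with the antisense gene 1010001N08Rik, which had 1.70 to 4.16 FPKM in KO and 2.48 to 3.20 FPKM in WT libraries at day 9. No strand is stated for the counting, so reads of such pairs cannot be told apart.

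Tbx20 (ENSMUSG00000031965, chromosome 9, 24718138 to 24774303, minus strand), a factor of chamber growth, had the smallest log2 fold change of the 9 tested genes at day 9. At that day it had 1.69, 2.14 and 2.54 FPKM in KO libraries and 2.67, 1.99 and 1.48 FPKM in WT libraries, and its log2 fold change of 0.05 had a 95% interval of -0.28 to 0.37. At day 0, where its levels were lowest, Tbx20 had 0.0519, 0.0724 and 0.0593 FPKM in KO libraries, all below the 0.105, 0.131 and 0.159 FPKM of WT libraries, as for 4.11% of all tested genes (log2 fold change -0.09, adjusted p = 1). Isl1 (ENSMUSG00000042258, chromosome 13, 116298281 to 116309689, minus strand), which marks second heart field precursors before they become muscle, was the only gene of the 10 whose highest group mean was that of WT day 9. It had 3.10, 2.57 and 1.10 FPKM in KO libraries and 2.86, 2.66 and 5.33 FPKM in WT libraries at day 6 (log2 fold change -0.51, adjusted p = 0.453). At day 9 it had 6.79, 7.15 and 4.43 FPKM in KO libraries and 8.53, 7.01 and 6.17 FPKM in WT libraries (-0.22, 95% interval -0.69 to 0.25). Its step from day 6 to day 9 passed in KO (1.16, adjusted p = 0.00178) and in WT cells (0.87, adjusted p = 0.0151), in WT not with the replicate block (adjusted p = 0.0753) or without replicate 1 of either day (0.0669 and 0.0714).

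Most genes of the contractile apparatus, the targets of these factors, had higher levels in KO than in WT cells at day 9. Of 22 sarcomere genes, 17 were tested and 13 were called, all higher in KO cells, where 0.468% of all tested genes were called higher. The median log2 fold change of the 17 was 1.51, beside 0.01 over all genes. Myh6, the atrial and adult heavy chain of myosin, averaged 23.4 ± 9.95 FPKM in KO and 2.32 ± 0.17 FPKM in WT cells (SD, n = 3 each; log2 fold change 2.79, adjusted p = 9.61e-07). Actc1, cardiac actin, averaged 264 ± 141 FPKM in KO and 40.6 ± 2.37 FPKM in WT cells (2.49, adjusted p = 0.00701). Myl7, an atrial myosin light chain, averaged 325 ± 209 FPKM in KO and 52.6 ± 22.5 FPKM in WT cells (2.48, adjusted p = 0.0249). Tnnt2, cardiac troponin T, averaged 14.1 ± 8.77 FPKM in KO and 2.61 ± 0.72 FPKM in WT cells (1.91, adjusted p = 0.00308). Under TPM 14 sarcomere genes were called, with voom 11 and with a pseudocount of 0.1 only 5, and the 13 kept their sign in each. Their summed level at day 9 was 865, 1172 and 367 FPKM in KO libraries, against 116, 142 and 197 FPKM in WT libraries. At day 6 it was 139, 78.9 and 37.7 FPKM in KO libraries and 103, 64.9 and 168 FPKM in WT libraries. At that day 0 of the 17 genes were called, where 0.726% of all tested genes were.

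The sarcomere sum at day 9 was higher in every KO than in every WT library, as were Smyd1, Nkx2-5, Tbx5 and Mef2c, whereas Gata4, Gata6, Tbx20, Hand1, Hand2 and Isl1 overlapped between the genotypes. Of all tested genes 6.41% were higher in KO cells without overlap at that day. Tbx5 had passed the filter only through its KO day 9 levels, and Mef2c was not among the tested genes. The library with the least Smyd1, Nkx2-5 and sarcomere RNA among the KO libraries of day 9 was replicate 3, which had the most Gata6.

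**Figure D4:**
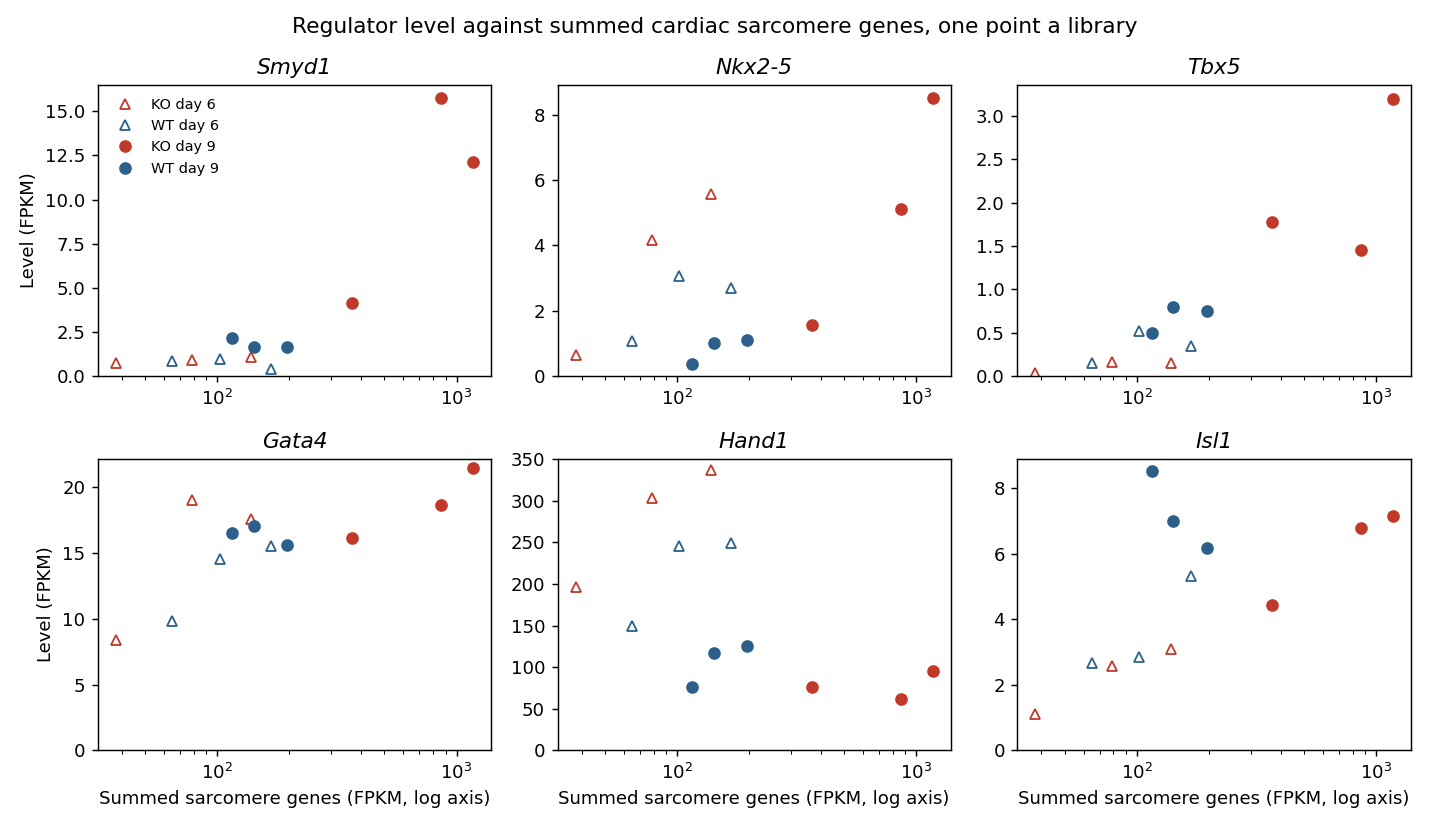
FPKM of Smyd1, Nkx2-5, Tbx5, Gata4, Hand1 and Isl1 (vertical axes, linear) against the summed FPKM of 22 sarcomere genes (horizontal, log axis) in each library of days 6 and 9, with KO in red and WT in blue. At day 9 the KO points lie right of the WT points in every panel, and they lie above all WT points for Smyd1, Nkx2-5 and Tbx5 but not for Gata4, Hand1 or Isl1.

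Other regulators and signals of heart formation were described from lists. Of all tested genes, 0.963% were called between the genotypes at day 9 and 0.726% at day 6. Of 29 other heart regulators, 28 were tested. At day 9, 3 were called, all higher in KO cells: Hey1, a Notch target of the atrioventricular boundary (1.27, adjusted p = 0.0169), Foxc2, a factor of the outflow tract and vessels (1.16, adjusted p = 0.01), and Myocd, the coactivator of muscle genes with SRF (0.86, adjusted p = 0.0171). Myocd averaged 1.47 ± 0.73 FPKM in KO and 0.317 ± 0.0931 FPKM in WT cells (SD, n = 3 each). These levels are close to or below the 1 FPKM of the filter, so its place among the tested genes may have depended on its KO day 9 levels. With equal sums only 2 of the 3 genes called at day 9 were still tested. At day 6 the 3 calls of this list were all lower in KO cells: Mesp1, the first marker of heart mesoderm (-1.88, adjusted p = 0.00556), Foxc2 (-1.82, adjusted p = 1.95e-04) and Tbx1, a second heart field factor (-1.60, adjusted p = 0.0176). Mesp1 averaged 0.52 ± 0.254 FPKM in KO and 5.99 ± 6.04 FPKM in WT cells, a spread between WT libraries as large as their mean. The list's median was 0.25 at day 9 and -0.19 at day 6, beside 0.01 and 0.02 over all genes, and the day 6 median was 0.02 under TPM, a scaling that raised the median of all genes to 0.51. The calls of day 6 were 2 under TPM or equal sums, 1 with voom and 4 with a pseudocount of 0.1, and those of day 9 fell to 1 with voom and 0 with a pseudocount of 0.1.

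Of 21 genes for heart-inducing signals 18 were tested. At day 6, 3 of them were lower in KO cells and 1 higher, where 0.726% of all tested genes were called. Aplnr, the apelin receptor that guides heart precursors, averaged 3.51 ± 1.63 FPKM in KO and 20.3 ± 6.29 FPKM in WT cells (SD, n = 3 each; -2.25, adjusted p = 5.05e-05). Cer1, a secreted inhibitor of Nodal and BMP, was listed at 0 in all 3 KO libraries and averaged 7.63 ± 3.02 FPKM in WT libraries. Fgf8, a growth factor of the primitive streak, averaged 2.06 ± 1.12 FPKM in KO and 12.5 ± 12.4 FPKM in WT cells (-1.84, adjusted p = 0.0414), and Wnt5a, a non-canonical WNT ligand, 10.5 ± 3.77 FPKM in KO and 4.39 ± 1.62 FPKM in WT cells (1.08, adjusted p = 0.0221). Under each of TPM, equal sums, voom and a pseudocount of 0.1 the lower calls were 2 and the higher calls 0. At day 9 Aplnr alone was called, and higher in KO cells (1.16, adjusted p = 0.025), though by neither voom nor a pseudocount of 0.1. At that day 0.468% of all tested genes were called higher. Of 12 genes for natriuretic peptides and calcium handling, 5 were tested and Hcn4, the pacemaker channel (0.99, adjusted p = 0.0279), and Slc8a1, the sodium-calcium exchanger (1.11, adjusted p = 0.00508), were higher in KO cells at day 9. The 2 calls became 1 under TPM or voom and 0 with a pseudocount of 0.1.

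Across the 24 libraries the 10 genes followed the course of differentiation together, as Pearson correlations of log2(FPKM + 1) show, which are descriptions of libraries that share the time course. The highest were between Hand2 and Isl1 (r = 0.972), Gata6 and Hand2 (r = 0.971) and Gata6 and Tbx20 (r = 0.968), and the lowest between Hand1 and Smyd1 (r = 0.519) and Tbx5 and Hand1 (r = 0.521). The genes most like Smyd1 among those with a group mean of at least 5 FPKM were Hspb7 (r = 0.962), Tnnt2 (r = 0.956) and Myl4 (r = 0.949), and the same 3 were the most like Tbx5 (r = 0.953 to 0.955). Nkx2-5 was most like Myl3 (r = 0.924) and Mhrt (r = 0.903), a transcript antisense to Myh7. Hand1 was most like Prdm6, H19 and Gpc3 (r = 0.981 to 0.991), Gata4 like Col4a2 (r = 0.983), Gata6 like Efnb3 (r = 0.985), Tbx20 like Lhfpl2 (r = 0.975), and Hand2 and Isl1 both like Zfp362 (r = 0.985 and 0.974).

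Markers of other muscle and vessel cells were measured beside these genes. Of 12 skeletal muscle markers, which could go with Smyd1 and Mef2c, 2 were tested, the actin gene Acta1 and the fast troponin gene Tnnt3. Both rose from day 3 to day 6 in each genotype, and neither was called between the genotypes at day 9. The list summed to 25.7 to 53.7 FPKM in KO and 28.4 to 37.6 FPKM in WT libraries at day 9, most of it Acta1. The muscle-determining factors in it, Myod1, Myog, Myf5 and Myf6, reached at most 0.52, 0.14, 0.11 and 0.15 FPKM in any library. Of 15 markers of endothelium, which also expresses Mef2c, 14 were tested. At day 9, 4 were called, all higher in KO cells, where 0.468% of all tested genes were called higher. These calls were 4 under TPM or voom, 7 with equal sums and 0 with a pseudocount of 0.1. At day 6, 1 was called and was higher in KO cells (Tie1, an endothelial receptor, 0.92, adjusted p = 0.0392), where 0.726% of all tested genes were called. The day 6 count was 1 under TPM, equal sums or a pseudocount of 0.1, and 0 with voom. The sum of the 15 endothelial markers at day 9 was 59.6 to 88.4 FPKM in KO and 29.4 to 41.2 FPKM in WT libraries. Cdh5, an endothelial cadherin (log2 fold change 1.25, adjusted p = 0.0102), averaged 7.41 FPKM in KO and 2.43 FPKM in WT cells. The same sum of 15 markers was 42.5 to 57.2 FPKM in KO and 42.3 to 49.7 FPKM in WT libraries of undifferentiated cells at day 0. At day 6 it was 22.4 to 46.5 FPKM in KO and 20.8 to 58.2 FPKM in WT libraries. Smooth muscle markers, 12 genes, summed to 1074 to 1471 FPKM in KO and 724 to 1351 FPKM in WT libraries at day 9, which overlapped. The part of endothelial RNA in the level of Mef2c was not tested.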

How the data were processed

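Poly(A)+ RNA of 24 libraries was read in pairs on an Illumina NovaSeq, per the labels' protocols. Per the submitters' processing notes the build was mm10, and Trimmomatic (0.39), FastQC (0.11.9), featureCounts (2.0.1), HISAT2 (2.2.1), R (4.1.0) and DESeq2 (1.30.1) were named, with no role given. The authors deposited 1 table of FPKM. The sources used here do not say how it was calculated. With exon lengths from GENCODE M21 (53360 genes), low FPKM values fell on steps of whole reads: 95.5% to 96.9% of values of at most 50 reads lay within 0.05 reads of a whole number. Their sums gave the depth, 7.86e+06 to 2.53e+07 reads per library.

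Genes with at least 1 FPKM in at least 3 libraries were fitted as log2(FPKM + 1) with limma 3.58.1 (R 4.3.3), 8 group means and a mean-dependent variance prior (degrees of freedom 16 residual, 4.02 prior), two-sided, with Benjamini-Hochberg adjustment over all 15159 genes per comparison. Comparisons were KO against WT on every day, each day against the one before it within a genotype, and the KO minus WT differences between successive days from day 3 on. Intervals are 95%. The fit was tested on simulated data. Other steps used scipy 1.17.1, numpy 2.4.6, pandas 2.3.3 and matplotlib 3.10.9 under Python 3.11.15. The alternatives were a pseudocount of 0.1, no filter, a filter of 5 FPKM, TPM, equal sums outside 3 rRNA-type genes, only the compared groups, voom, a replicate block within each day, and each library left out, with the genes kept that passed the filter in all 24 libraries.

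The members and lists were chosen with earlier results of these data known. Named genes were the 10, Atf3, overlapping genes, up to 4 called genes of each list described with the largest change (or its most abundant gene), and the 3 genes most like each of the 10 by Pearson correlation. Defining markers of other cell types and the highest-ranked likeness pairs were added after their values were seen. A KO day 0 column whose name fits the group, but no single sample of it, was kept without a replicate number. Equal replicate numbers went with correlated deviations of the libraries at day 3 (0.599 to 0.655 for the 3 pairs), so the numbers were taken to pair the libraries there. The main fit, including its day 3 tests, did not use this pairing, which entered only the alternative with a replicate block.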

Additional observations from a re-analysis of the deposited data

Results flagged for a closer look

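For 2 of the genes the KO minus WT difference was called different between days 9 and 6. In that test 0.963% of all tested genes were called, 0.6% higher. For Smyd1 the difference was larger at day 9 than at day 6 by 1.74 on the log2(FPKM + 1) scale (SE 0.38, limma adjusted p = 0.0237), with every KO library above every WT library at day 9 and overlap at day 6. For Tbx5 it was larger by 1.12 (SE 0.22, limma adjusted p = 0.0126), with the same arrangement of libraries, and this gene had passed the filter only through its KO day 9 levels.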

How the results depend on the processing

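With 3 libraries per group, a spread between libraries and some genes near 1 FPKM, small differences may have been missed. How small a difference could be detected was not tested. The 2 calls of KO against WT at day 9 became 1 with a pseudocount of 0.1 or voom, 0 with the compared groups alone, and 2 to 3 with a library left out. For the difference between days 9 and 6 the 2 calls became 1 under TPM or the replicate block, 0 with a pseudocount of 0.1, the compared groups alone or voom, and 1 to 2 with a library left out. In both tests there were 0 calls with a filter of 5 FPKM. That filter left 6 of the genes and removed Smyd1 and Tbx5, so neither could be called under it. The difference between days 6 and 3 had 0 calls and 0 to 1 with a library left out. For KO day 3 against day 0, 0 calls became 3 with a pseudocount of 0.1 or the compared groups alone, 2 with voom and 1 with equal sums. For WT day 3 against day 0, 1 call became 3 with a pseudocount of 0.1 and 2 with the compared groups alone. For KO day 9 against day 6, 6 calls became 1 with the compared groups alone. For WT day 9 against day 6, 3 calls became 7 under TPM, 8 with equal sums, 1 with the compared groups alone, and 1 to 3 with a library left out, and the change of Hand1 was 0.094 under TPM. The cause was not tested. Counts of the other comparisons stayed within 1.5 times. Beside the calls named in the report, the replicate block ended none in KO against WT, where it left the counts at 0, 0, 0 and 2. Same-numbered libraries correlated by -0.106 to 0.12 at day 0, -0.467 to 0.265 at day 6 and -0.459 to 0.196 at day 9, where they share only a number.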
